A study of Homo sapiens with 4 samples.

Results

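To follow miRNAs that circulate mainly with blood cells, 7 mature miRNAs were examined in the extracellular vesicles (EVs) that MDA-MB-231 cells release. MDA-MB-231 is a human line of triple-negative breast cancer. The members are the rows of the deposited counts that carry these names, and the list was drawn up with earlier results of these data known. They were 4 miRNAs of leukocytes and platelets (hsa-miR-223-3p, hsa-miR-142-3p, hsa-miR-142-5p and hsa-miR-150-5p) and 3 miRNAs of red cells (hsa-miR-451a, hsa-miR-486-5p and hsa-miR-144-3p). All 7 were listed for every library, out of 539 miRNAs listed in both deposited tables.

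The study sequenced small RNA from EVs of wild-type MDA-MB-231 cells kept for 12 h either in EV-free DMEM, giving 231 EV, or in medium without glucose, giving 231 -G EV. Cells were grown in 10% fetal bovine serum before that and were at 90% confluence, and the EVs were pelleted at 110000 × g for 70 min. There were 4 libraries, 2 for each medium, numbered 1 and 2. Before libraries numbered 1 were made, modifications were stripped from the RNA, and their inserts spanned 14 to 40 nt. For libraries numbered 2 the labels name a TruSeq kit for the RNA and an NEBNext small RNA kit for the library, so the replicate number, the depth and the preparation cannot be told apart. A pair here means the 231 EV and 231 -G EV libraries of 1 replicate number. Whether the glucose-free medium also held serum, and whether the pairs were separate cultures, was not given in the sources used here. No library of medium without cells was analysed here, so the origin of these miRNAs, from the cells, from bovine serum or from handling, was not tested.

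A miRNA is a short RNA that guides Argonaute proteins to messenger RNAs through its seed, the bases near its 5′ end. Blood cells are rich in a few of them. MiR-451a and miR-144 come from 1 transcript switched on during red cell maturation, and miR-451a is unusual in being cut by AGO2 instead of Dicer. MiR-486-5p is abundant in red cells and in muscle. MiR-223 is a miRNA of myeloid cells and platelets, miR-142 is made in nearly all blood cell lineages, and miR-150 is a miRNA of mature lymphocytes. Epithelial cells usually hold little of these, so they are often read in serum and plasma as signs of blood cells or of lysis. Many mature miRNAs have the same sequence in cattle and in humans, and reads of that kind carry no mark of species.

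The mature sequences of 4 of the 7 members and of 1 sister arm are shown because the results below compare arms and seeds within these hairpins. They come from RefSeq (GRCh38.p14), run 5′ to 3′, and carry the seed, bases 2 to 8, in capitals.
hsa-miR-223-3p: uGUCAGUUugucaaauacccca
hsa-miR-142-3p: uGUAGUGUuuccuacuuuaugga
hsa-miR-142-5p: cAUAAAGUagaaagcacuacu
hsa-miR-144-3p: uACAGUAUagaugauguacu
hsa-miR-144-5p: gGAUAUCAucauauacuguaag
The 4 members had 4 different seeds. The seed of hsa-miR-142-5p also occurs in hsa-miR-5590-3p, and the other 3 member seeds occurred in no other mature miRNA of that table. The 2 arms of miR-142 come from 1 hairpin of 87 bases, the 5′ arm from bases 16 to 36 and the 3′ arm from bases 52 to 74. The arms lie at chr17:58331283-58331303 and chr17:58331245-58331267 on the minus strand. MiR-223-3p lies at chrX:66018937-66018958 on the plus strand, and miR-144-3p at chr17:28861548-28861567 on the minus strand.

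In the GRCh38 annotation, MIR451A (chr17:28861369-28861440) and MIR144 (chr17:28861533-28861618) are 92 bases apart on the minus strand, inside an exon of the lincRNA AC024267.1. MIR4732 (chr17:28861655-28861730) lies beside MIR144 on the same strand, and the 3 hairpins span 362 bases. MIR142 (chr17:58331232-58331318, minus strand) overlaps an exon of the non-coding gene AC004687.1 on the same strand and an intron of TSPOAP1-AS1 on the other. MIR223 (chrX:66018870-66018979, plus strand) overlaps an exon of AL034397.3. MIR150 (chr19:49500785-49500868, minus strand) overlapped no other annotated gene. The hairpins MIR486-1 and MIR486-2 lie on opposite strands in an intron of ANK1, the gene of the red cell protein ankyrin, and both yield miR-486-5p, so its reads cannot be assigned to one of them.

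The depth of pair 1 was low, at 18397 reads for 231 EV and 15597 for 231 -G EV, while pair 2 held 224966 and 170894 reads. A count of 0 allows up to 3 reads, which is 163 and 192 CPM (reads of a miRNA per 1000000 miRNA reads of the library) in pair 1 and 13.3 and 17.6 CPM in pair 2. Because CPM is a share, a value also moves with the rest of its library. One non-member did this in pair 1: hsa-miR-182-5p made up 51.0% of 231 EV and 2.73% of 231 -G EV, against 0.254% and 0.25% in pair 2. The reads carry no molecular identifiers, so PCR copies count as reads and every interval covers counting error only.

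In pair 1 the 7 miRNAs together made up 20.1% of 231 EV and 42.9% of 231 -G EV, but 1.04% and 0.461% of these libraries in pair 2. Red cell members took nearly all of this in pair 1, with 20.0% and 42.8%, against 0.0435% and 0.173% for the leukocyte and platelet members. In pair 2 the order was the other way round, with 0.218% and 0.0679% for red cell members and 0.820% and 0.393% for leukocyte and platelet members. The make-up of this small group therefore differed more between the preparations than between the media.

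Among the red cell members, miR-451a had 3577 reads in 231 EV and 6364 in 231 -G EV of pair 1, or 19.4% (95% Wilson interval 18.9 to 20.0) and 40.8% (40.0 to 41.6). It was the second most abundant miRNA of the first library and the most abundant of the second. Pair 2 held 295 and 68 reads of it, shares of 0.131% (0.117 to 0.147) and 0.0398% (0.0314 to 0.0504), which placed it 63rd and 106th. The level was thus high in both libraries of pair 1 and low in both of pair 2, 148-fold (95% exact interval 132 to 167) apart for 231 EV and 1025-fold (808 to 1322) apart for 231 -G EV.

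MiR-486-5p had 96 and 295 reads in pair 1 and 143 and 33 in pair 2, that is 5218 and 18914 CPM against 636 and 193 CPM. It too was higher in pair 1 in both media, by 8.21-fold (6.27 to 10.7) and 97.9-fold (68.2 to 145). MiR-144-3p, made from the transcript that also carries miR-451a, had 13 reads in each library of pair 1 and 52 and 15 in pair 2. Its 707 and 834 CPM in pair 1 were 3.06-fold (1.53 to 5.69) and 9.50-fold (4.16 to 21.4) above the 231 and 87.8 CPM of pair 2. All 3 red cell members were therefore above their pair 2 levels in both pair 1 libraries, and the size of the gap ran from miR-451a down to miR-144-3p.

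The leukocyte and platelet members had few reads in pair 1, from 0 to 16. MiR-223-3p had 3 and 2 reads there and 502 and 158 in pair 2, where it stood at 2231 (95% Wilson interval 2045 to 2435) and 925 CPM. MiR-142-3p had 3 and 3 reads in pair 1 and 858 and 324 in pair 2, the highest level of the 7 in both libraries of that pair at 3814 and 1896 CPM. These 2 were lower in pair 1 in both media, by 13.7-fold and 7.21-fold for miR-223-3p and by 23.4-fold and 9.86-fold for miR-142-3p, the reverse of the red cell members. Non-members were lower there too. The gap was 15.6-fold and 8.45-fold for miR-21-5p, and 18.5-fold and 43.25-fold for miR-16-5p, which is also abundant in red cells. A lower share in pair 1 was therefore not particular to leukocyte and platelet members.

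MiR-142-5p, from the other arm of that hairpin, had 2 and 16 reads in pair 1, and its pair 2 level was 1636 CPM in 231 EV and 831 CPM in 231 -G EV. MiR-150-5p had 0 and 6 reads in pair 1 and 117 and 47 in pair 2. In 231 EV both were lower in pair 1, with a miR-142-5p level 15.0-fold below that of pair 2. In 231 -G EV their 1026 and 385 CPM of pair 1 could not be separated from the 831 and 275 CPM of pair 2, with ratios of 1.23 (0.687 to 2.07) and 1.40 (0.489 to 3.28). The shift against the preparation was thus not shared by all 4 members in the library of glucose-starved cells.

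**Figure D1:**
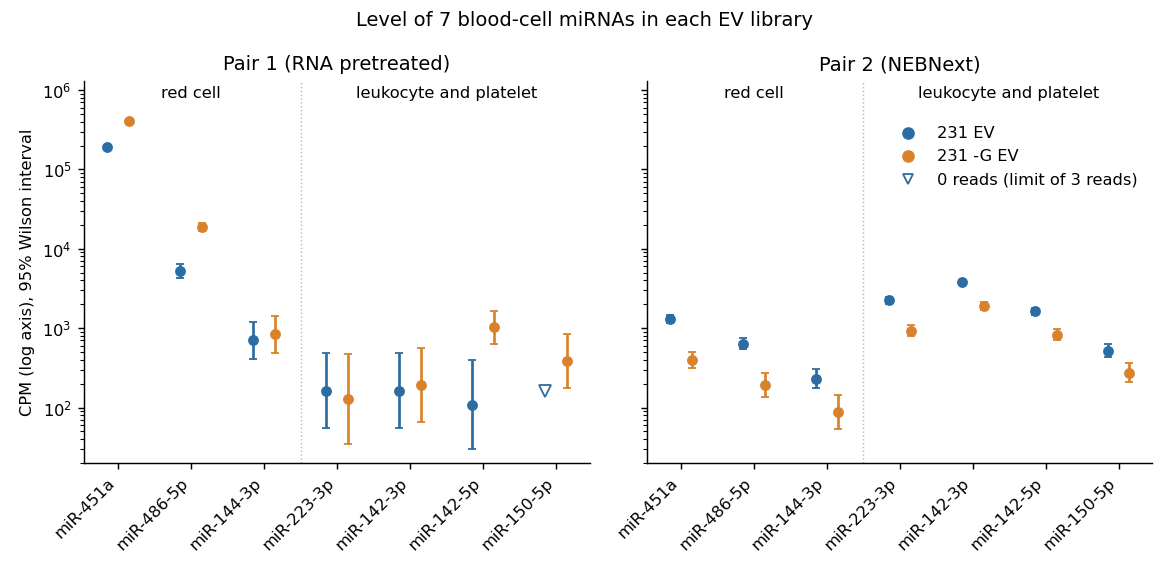
Level of each member in CPM on a log axis, with 95% Wilson intervals, for pair 1 (left) and pair 2 (right), 231 EV in blue and 231 -G EV in orange; the open triangle marks a library with 0 reads at the limit of 3 reads. In pair 1 the levels fall from 408027 CPM for miR-451a to a few reads for the leukocyte and platelet members, while in pair 2 every orange point lies below the blue point of the same miRNA.

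In pair 2, all 7 members were lower in 231 -G EV than in 231 EV. The comparison used Fisher's exact test on the reads of each miRNA against all others in the library (two-sided, with Benjamini-Hochberg adjustment across the 618 miRNAs that had a read in the pair). All 7 passed an adjusted p of 0.05, while 8.74% of the miRNAs tested were called lower, 29.5% of the 166 with at least 50 reads in the pair, and 9.87% of all were called higher. Such a test compares 2 libraries and not the media, since each pair has 1 library for each medium. Fewer EVs with a miRNA and fewer copies in each EV cannot be told apart in these bulk libraries.

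The red cell members were lowest. The ratio of 231 -G EV to 231 EV was 0.303 (95% exact interval 0.230 to 0.396) for miR-451a, 0.304 (0.202 to 0.446) for miR-486-5p and 0.380 (0.199 to 0.685) for miR-144-3p, with exact adjusted p of 2e-21, 1.1e-10 and 0.00364. As a group they went from 490 to 116 reads, a ratio of 0.312 (0.252 to 0.382). The 3 intervals overlap one another, so no order among the red cell members is shown.

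The leukocyte and platelet members went from 1845 to 671 reads as a group, a ratio of 0.479 (0.438 to 0.523). The ratios were 0.414 (0.344 to 0.496) for miR-223-3p, 0.497 (0.436 to 0.566) for miR-142-3p, 0.508 (0.416 to 0.618) for miR-142-5p and 0.529 (0.369 to 0.748) for miR-150-5p. Their exact adjusted p ran from 9.51e-28 for miR-142-3p, with the most reads, to 0.00114 for miR-150-5p, with the fewest. The summed red cell reads per summed leukocyte and platelet read went from 0.266 in 231 EV to 0.173 in 231 -G EV, a change of 0.651 (0.517 to 0.815). This difference between the sums rested on miR-451a and miR-486-5p. Against miR-223-3p alone the interval of the change included 1 for each red cell member, and for miR-144-3p it included 1 against all 4 leukocyte and platelet members.

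Placed among the 165 miRNAs with at least 50 reads in pair 2 and a read in both libraries, whose median ratio was 1.02, the members stood at the low end. MiR-451a had the 3rd lowest ratio and miR-486-5p the 4th lowest, followed by miR-144-3p at place 7 and miR-223-3p at place 10. MiR-142-3p, miR-142-5p and miR-150-5p held places 20, 21 and 23. In all, 20 of the 165 had a ratio under 0.5, and 5 of these 20 were members. The median over the 7 members was 0.414, against 1.05 over all 405 miRNAs of the pair with a read in both libraries.

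In pair 1, 3 of the 7 members were called higher in 231 -G EV and 0 lower. Over the 670 miRNAs with a read, 7.91% were called higher and 1.79% lower, and among the 109 with at least 15 reads in the pair 42.2% were called higher. MiR-451a was 2.10-fold (95% exact interval 2.01 to 2.19) higher and miR-486-5p 3.63-fold (2.87 to 4.61) higher, the latter with an exact adjusted p of 4.93e-31. MiR-142-5p, with 2 against 16 reads, was 9.44-fold (2.22 to 84.6) higher, with an exact adjusted p of 0.00282. Of the 4 members that reached 15 reads, 3 were called, in a pair where calls in this direction were common at that depth.

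The other 4 members were not called in pair 1. MiR-144-3p had a ratio of 1.18 (0.504 to 2.76) on 13 reads each, an interval that also holds the 2.10 of miR-451a from the same transcript. MiR-223-3p had a ratio of 0.786 (0.0657 to 6.87) and miR-142-3p one of 1.18 (0.158 to 8.81), intervals too wide to exclude a several-fold change in either direction. MiR-150-5p had 0 against 6 reads, so its ratio has no point value. The exact interval of that ratio started at 1.39, and its exact adjusted p was 0.0880.

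The pair 1 values depended on the total they were divided by. When the totals were formed without hsa-miR-182-5p, the ratio of miR-451a was 1.06 (1.02 to 1.10), that of miR-486-5p 1.83 (1.45 to 2.32) and that of miR-142-5p 4.75 (1.12 to 42.6). The first 2 were still called, with exact adjusted p of 0.0080 and 3.34e-06, and miR-142-5p was not (0.233). MiR-144-3p then had a ratio of 0.594 (0.254 to 1.39). In pair 2, where hsa-miR-182-5p held a small and even share, leaving it out kept every member's ratio the same to 3 digits.

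**Figure D2:**
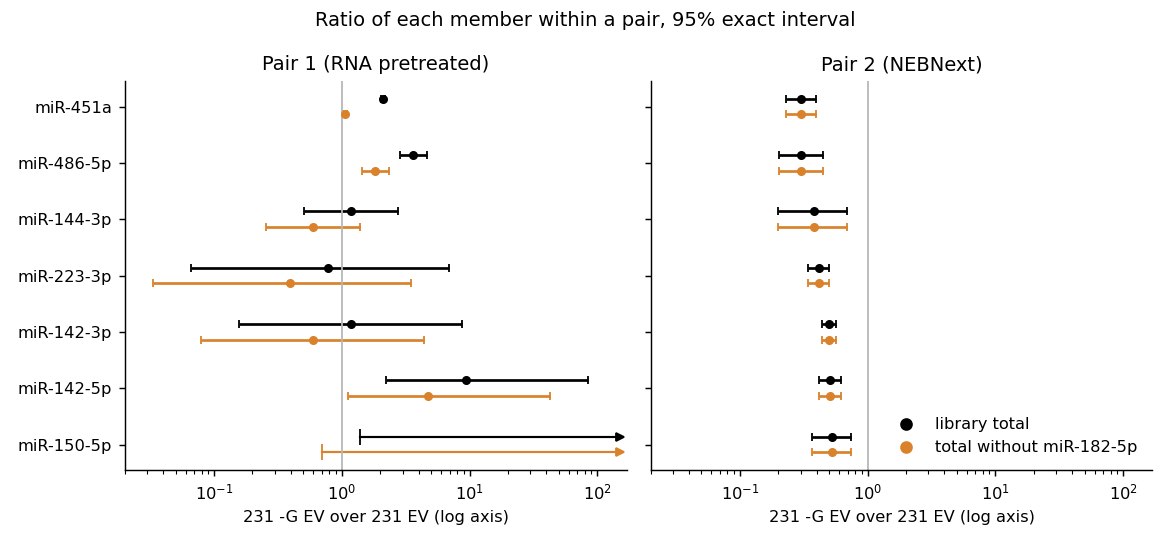
Ratio of 231 -G EV to 231 EV for each member, on a log axis with 95% exact intervals, by library total (black) and by a total formed without hsa-miR-182-5p (orange); arrows mark an interval with no upper end. In pair 2 all 7 intervals lie below 1 under both totals, whereas in pair 1 the ratio of miR-451a goes from 2.10 to 1.06.

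By library totals, 3 members went in opposite directions in the 2 pairs, with miR-451a, miR-486-5p and miR-142-5p called higher in pair 1 and lower in pair 2. The pair 1 call of miR-142-5p rested on 2 against 16 reads and was lost without hsa-miR-182-5p in the total. Among 295 miRNAs that had reads in both pairs, 15 did this (5.08%), 20 (6.78%) had an exact interval above 1 in pair 1 and below 1 in pair 2, and 24 were called in both pairs in any combination of directions. Of those 24, 0 were lower in pair 1 and higher in pair 2, 8 were higher in both and 1 was lower in both. The opposite direction was therefore held by other miRNAs too, among them hsa-miR-122-5p of liver and hsa-miR-126-3p of endothelium and platelets. Shares of the 295 were not matched for depth. The difference between the pairs was not tested.

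Across both replicates, the quasi-likelihood test of edgeR, blocked by replicate number, called 0 of 384 miRNAs (0%), with 5 at an unadjusted p under 0.05. Member log2 fold changes ran from -1.00 (SE 1.14) for miR-223-3p to 0.62 (SE 1.16) for miR-142-5p, and the edgeR adjusted p was 0.999 for each of the 7. MiR-451a had a log2 fold change of -0.31 (SE 0.89) and miR-486-5p one of 0.10 (SE 1.07). The median over all 384 was 0.20, and the standard errors of all 7 members exceeded their estimates. DESeq2 and limma also called 0, with 6 and 13 at an unadjusted p under 0.05.

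A ratio of 2 members in 1 library does not depend on the library total. MiR-451a per miR-486-5p was 37.3 in 231 EV and 21.6 in 231 -G EV of pair 1, a change of 0.579 (0.453 to 0.734). In pair 2 it was 2.06 in both libraries, a change of 0.999 (0.617 to 1.64). The ratio between these 2 red cell miRNAs was thus kept within its counting error when both were lower in pair 2, and differed between the media in pair 1, where miR-486-5p was higher by more than miR-451a.

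MiR-451a per miR-144-3p, 2 products of 1 cluster, was 275 and 490 in pair 1 and 5.67 and 4.53 in pair 2. The changes between the media were 1.78 (0.759 to 4.17) and 0.799 (0.413 to 1.62), and both intervals include 1. MiR-486-5p per miR-144-3p went from 7.38 to 22.7 in pair 1, a change of 3.07 (1.26 to 7.45), and from 2.75 to 2.20 in pair 2 (0.385 to 1.72 for the change). Within 1 medium, by contrast, the ratio of miR-451a to miR-144-3p differed by well over an order of magnitude between the preparations.

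The 2 arms of the miR-142 hairpin kept their ratio within counting error in pair 2. There were 2.33 (2.06 to 2.64) reads of miR-142-3p per read of miR-142-5p in 231 EV and 2.28 (1.87 to 2.80) in 231 -G EV, a change of 0.979 (0.772 to 1.24). In pair 1 the ratio was 1.5 on 3 and 2 reads and 0.188 on 3 and 16 reads, a change of 0.125 whose interval of 0.00816 to 1.76 includes 1. The 3′ arm was thus the more abundant in both libraries of pair 2 and the less abundant in the 231 -G EV library of pair 1, whose interval of 0.0350 to 0.655 lies below 1.

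MiR-223-3p per miR-142-3p was 0.585 and 0.488 in pair 2, a change of 0.833 (0.664 to 1.04), and rested on 2 or 3 reads in pair 1. Per miR-142-5p it was 1.36 and 1.11, and per miR-150-5p 4.29 and 3.36, with changes of 0.816 (0.621 to 1.07) and 0.783 (0.527 to 1.18). Between the groups of cells, miR-451a per miR-223-3p was 1192 and 3182 in pair 1 against 0.588 and 0.430 in pair 2, and miR-486-5p per miR-223-3p was 32.0 and 148 against 0.285 and 0.209. Over all 21 ratios between 2 members, the interval of the change between the media included 1 for 15 in pair 2 and for 17 in pair 1. All 21 changes of pair 2 lay between 0.574 and 0.999. In pair 1 the 6 ratios with miR-150-5p are among these 17 and have no point value, because of its 0 reads in 231 EV, and the other 15 changed by 0.0833 to 4.61. In pair 2 the ratios of the 7 members therefore had point estimates within 1.74-fold of one another.

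**Figure D3:**
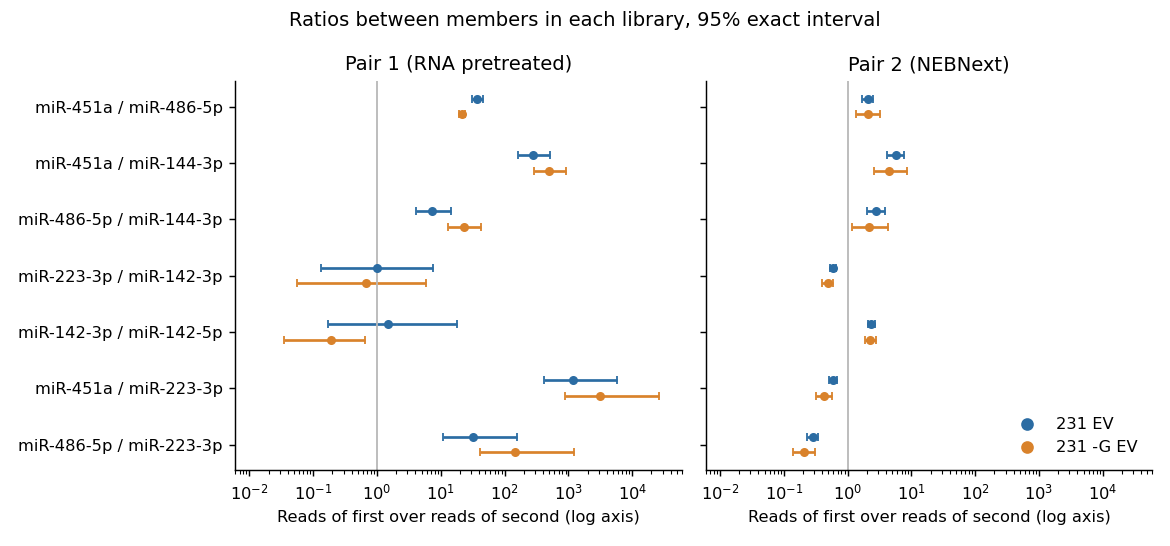
Reads of 1 member per read of another in each library, on a log axis with 95% exact intervals, for 231 EV (blue) and 231 -G EV (orange). The 2 media lie close together in pair 2, as for miR-451a per miR-486-5p at 2.06 in both, while the same ratios of red cell members sit to the right in pair 1, at 37.3 and 21.6.

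Other products of the member hairpins and of the hairpins beside them were read next. MiR-144-5p, the arm opposite miR-144-3p, had 80 and 19 reads in pair 2, a ratio of 0.313 (0.179 to 0.520) with an exact adjusted p of 6.55e-06, and 0 in both libraries of pair 1. MiR-144-3p per miR-144-5p was 0.650 (0.449 to 0.933) in 231 EV and 0.789 (0.373 to 1.64) in 231 -G EV, so both arms of this hairpin were lower together in pair 2. The other products had at most 5 reads in any library. MiR-223-5p had 0 and 2 reads in pair 1 and 3 and 2 in pair 2. Listed for replicate 1 alone were miR-486-3p with 0 and 5 reads, miR-4732-5p with 0 and 4 and miR-150-3p with 0 and 1, none of which passed the exact test, and miR-451b with 0 in both, which could not be tested.

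Set against miR-16-5p, which is itself abundant in red cells and which was among the RT-qPCR references of the study, the members of pair 2 were lower by more. MiR-16-5p had 15834 and 18955 reads in pair 2 and was 1.58-fold (1.54 to 1.61) higher in 231 -G EV, opposite to all 7 members. Per read of miR-16-5p, miR-451a changed by 0.193 (0.146 to 0.252) and miR-223-3p by 0.263 (0.218 to 0.315). In pair 1 miR-16-5p had 70 and 40 reads, and per read of it miR-451a changed by 3.11 (2.08 to 4.72) and miR-486-5p by 5.38 (3.34 to 8.68). Against miR-21-5p, an abundant miRNA of this cell line with 68029 and 39805 reads in pair 2 and 356 and 430 in pair 1, miR-451a changed by 0.394 (0.298 to 0.515) in pair 2 and by 1.47 (1.27 to 1.71) in pair 1. The direction of miR-451a was the same whether it was set against the total or against either of these.

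Lists of other miRNAs were read beside the members, each chosen by knowledge of where they are abundant. Of 10 further blood miRNAs, 5 were called higher and 0 lower in pair 1, with a median ratio of 2.08, and 2 were higher and 4 lower of the 9 listed in pair 2, with a median of 0.832. MiR-126-3p, with 22 and 57 reads in pair 1 and 1582 and 589 in pair 2, had ratios of 3.06 (1.84 to 5.25) and 0.490 (0.445 to 0.539). MiR-25-3p, also abundant in red cells, was higher in both pairs, by 3.20-fold and 1.68-fold. Blood miRNAs outside the 7 thus did not all go the way of the members in pair 2.

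The liver miRNA miR-122-5p, which circulates in serum, had 17 and 48 reads in pair 1 and 298 and 90 in pair 2, ratios of 3.33 (1.88 to 6.18) and 0.398 (0.311 to 0.505). Without hsa-miR-182-5p in the total, its pair 1 ratio was 1.68 (0.948 to 3.11). By library totals it was called higher in pair 1 and lower in pair 2, like miR-486-5p. The 3 muscle miRNAs (miR-1-3p, miR-133a-3p and miR-206) went from 3 to 229 reads in pair 1, and all 3 were called higher. In pair 2 they had 15 and 4 reads and 0 calls, with miR-206 at 0 in both libraries. Because muscle also makes miR-486-5p, these values stand beside its 96 and 295 reads in pair 1, and the part of muscle RNA in that result was not tested.

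The 4 epithelial miRNAs of the list (miR-200c-3p, miR-141-3p, miR-203a-3p and miR-205-5p) had 9 and 19 reads in pair 1, with 0 calls, and 150 and 18 in pair 2, where miR-205-5p was called lower at 109 and 3 reads. The remaining 3 members of the miR-200 family, named after their values were seen, were read as well. Called higher in pair 1 were miR-200a-3p at 1 and 29 reads and miR-200b-3p at 9 and 42. In pair 2 they had 36 and 12 reads and 7 and 3 reads, ratios of 0.439 and 0.564, and neither was called. MiR-429 had 2 and 1 reads in pair 1 and 2 and 2 in pair 2, with no call. A further list of 6 miRNAs was drawn up for MDA-MB-231 cells, of which miR-31-5p stayed at or below 4 reads in every library and so was not abundant here. Of the 6, 2 were called higher and 0 lower in pair 1, and 2 higher and 3 lower in pair 2, with median ratios of 0.891 and 0.733. Their sum, of which miR-21-5p made up most, had a ratio of 1.38 (1.22 to 1.57) in pair 1, but of 0.695 (0.612 to 0.789) by a total formed without hsa-miR-182-5p, and of 0.775 (0.767 to 0.783) in pair 2. The 7 members together had ratios of 2.14 (2.06 to 2.23) and 1.08 (1.03 to 1.12) in pair 1 under the same totals, and of 0.444 (0.409 to 0.481) in pair 2.

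The miRNAs with the most similar pattern over the 4 libraries were found as the smallest distance between log2(CPM + 1) values centred on their mean, among 229 miRNAs with at least 20 reads in all. For miR-142-3p these were miR-126-5p (distance 0.32), let-7a-5p (0.37) and miR-21-5p (0.63). For miR-223-3p they were miR-339-5p (0.66), the member miR-142-3p (0.76) and miR-103a-3p (0.83), and miR-144-3p was nearest to miR-127-3p (0.32). MiR-486-5p was nearest to miR-10b-5p (0.98), and miR-451a to miR-6747-3p (0.90), which had 10, 11, 1 and 0 reads. For 6 of the 7 members, none of the 3 nearest was another member, so the 7 did not form a group of their own by this measure. The leukocyte and platelet members had few reads in pair 1, and counting error there enters every distance.

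**Figure D4:**
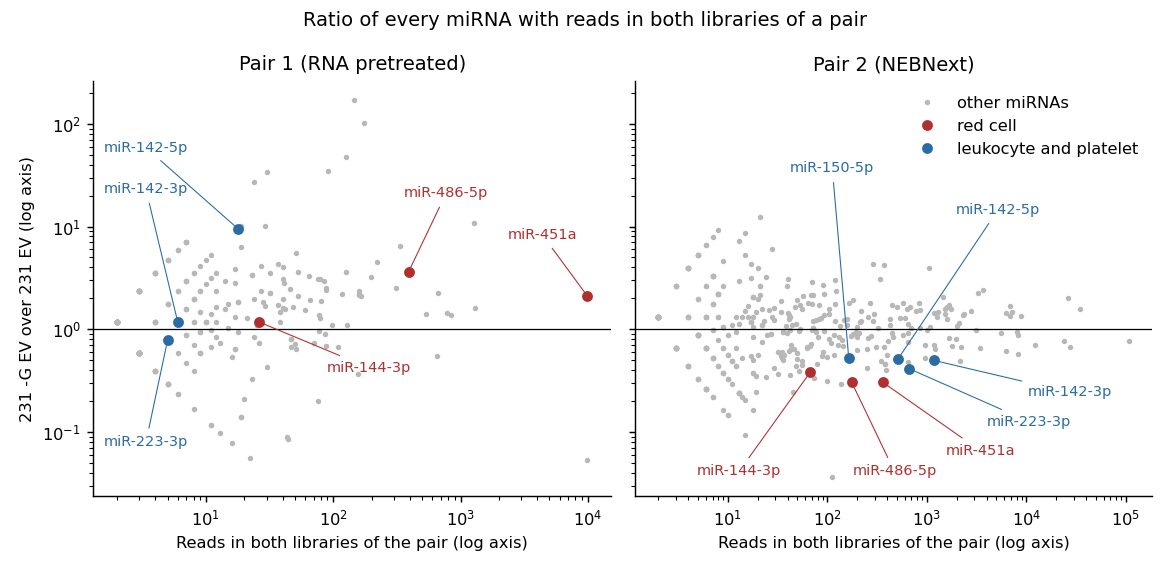
Ratio of 231 -G EV to 231 EV against the reads of both libraries, on log axes, for every miRNA with a read in both libraries of a pair; members are coloured and named, and miR-150-5p is absent on the left because it had 0 reads in 231 EV. On the right the 7 members lie below 1 at ratios from 0.303 to 0.529, and on the left they spread from 0.786 to 9.44.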

How the data were processed

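Small RNA reads of EVs from 2 media were analysed in 4 libraries. The authors deposited whole-number read counts per miRNA, as 2 tables with 1315 and 843 miRNAs. Beside them, the deposited CPM values of replicate 1 and the deposited TPM values of replicate 2 both equalled the count over the library total times 1000000, with no length term, and the counts were used here. The study's methods describe adapter and quality trimming, filtering of further RNA classes and a search of miRBase after alignment, and the processing notes of the submitters name hg38, Bowtie, Bowtie2, StringTie, cutadapt, FastQC and edgeR. The methods also state database versions, a base quality threshold and a range of read sizes, and the version of the aligner used for small RNA was not given in the sources used here.

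Groups followed the labels. Within a pair, shares were compared by Fisher's exact test against the rest of the library (SciPy 1.17.1, Benjamini-Hochberg over miRNAs with a read), with 95% exact conditional intervals of ratios. Across pairs, edgeR 4.0.16 in R 4.3.3 (quasi-likelihood test), blocked by replicate number and scaled by the deposited totals, covered 384 miRNAs that both tables list and that had a read in at least 2 libraries. Calls needed an adjusted p under 0.05, and in edgeR also a log2 fold change beyond 1 in size. Per the labels a number marks a preparation, which pairs the libraries, and deviations of same-numbered libraries correlated at 0.59. Exact p-values within a pair cover counting error only. Nothing in the labels ties the libraries to separate cultures, so the p-values across pairs measure only the spread between these libraries. Both tests were tested on simulated data. For the exact test these data held counting error alone, so spread between libraries was not covered. Members, marker lists and tests were chosen with earlier results of these data known. The text names the members, other products of their hairpins, reference miRNAs, list miRNAs and the 3 most similar miRNAs by a fixed rule. Alternatives were TMM factors, totals without hsa-miR-182-5p, hsa-miR-451a or both, other filters, no block, DESeq2 1.42.0, limma 3.58.1 on log2(CPM + 1), and leaving out a replicate.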

Additional observations from a re-analysis of the deposited data

Results flagged for a closer look

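Of the 7 members, 4 had ratios of 231 -G EV to 231 EV on opposite sides of 1 in the 2 pairs, with an exact interval that excludes 1 in each. All 4 were above 1 in pair 1 and below 1 in pair 2, as were 20 (6.78%) of the 295 miRNAs with reads in both pairs. That share is not matched for depth. Calls higher in pair 1 rose from 7.91% of all miRNAs to 42.2% of those with at least 15 reads. Calls lower in pair 2 rose from 8.74% to 29.5% of those with at least 50 reads. The difference between the pairs was not tested, and the pair, the depth and the preparation cannot be told apart. The ratio of miR-451a was 2.10 in pair 1 and 0.303 in pair 2, and that of miR-486-5p was 3.63 and 0.304. The ratio of miR-142-5p was 9.44 and 0.508. MiR-150-5p had 6 reads against 0 in pair 1 and a ratio of 0.529 in pair 2. In totals formed without hsa-miR-182-5p, the interval of miR-150-5p in pair 1 started at 0.70 and included 1, and those of the other 3 still lay above 1.

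Listed for replicate 1 alone, and therefore outside the comparisons across pairs, were products of member hairpins or of the neighbouring hairpin MIR4732, with reads in 231 -G EV and 0 in the 231 EV control. MiR-486-3p had 5 reads, miR-4732-5p 4 and miR-150-3p 1. By Fisher's exact test none passed after adjustment (adjusted p 0.166, 0.312 and 0.869).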

How the results depend on the processing

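Within pair 2, 7 of 7 members were called lower under every total tried. Within pair 1, the members called higher numbered 3 by library totals and 2 with hsa-miR-182-5p left out, and leaving out hsa-miR-451a instead added miR-150-5p. Calls over all miRNAs of that pair moved alike, from 65 to 53 and 75. The number of calls across replicates was 0 and became 1 with hsa-miR-182-5p, or both it and hsa-miR-451a, left out of the totals (hsa-miR-449c-5p) and 1 with no filter on low counts (hsa-miR-206). No member was called under any setting, with adjusted p from 0.988 to 1. Chosen after seeing the data, list sums were also divided by totals that exclude hsa-miR-182-5p, and that of the MDA-MB-231 list in pair 1 went from 1.38 to 0.695. The median log2 fold change of all miRNAs moved from 0.20 by library totals to -0.14 by TMM, and the share higher from 60.2% to 43.2%. Without the replicate block, the log2 fold change of miR-451a was 1.06 instead of -0.31. That of miR-486-5p was 0.10 by library totals, 1.71 without the block, 0.32 without hsa-miR-451a, -0.36 by TMM, -0.39 without hsa-miR-182-5p, -0.36 without it and hsa-miR-451a, and -0.22 by DESeq2. Of 62 such values, 57 kept their sign. Size still moved for miR-150-5p, at 0.49 by library totals, 0.0079 by TMM and 1.14 by DESeq2. By limma it was 3.84, a value that also rests on the 1 CPM added to 0 reads. The cause of the sign changes was not tested. With 1 replicate left out, which gives a value with no test, log2 fold changes took the sign of the remaining pair. Between the lowest and highest, they ran from -1.01 to 0.24 for miR-142-3p, -0.98 to 3.23 for miR-142-5p, -1.72 to 1.07 for miR-451a, -1.71 to 1.86 for miR-486-5p and -1.39 to 0.24 for miR-144-3p. That of miR-150-5p ran from -0.92 to 8.59, where the upper value comes from 6 reads against 0, has its size set by the added 1 CPM and is no estimate of a fold. The few reads of pair 1 limit the leukocyte and platelet members there.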
